A study of Schizosaccharomyces japonicus with 2 samples.

Results

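The small RNA of 4 chromosome-scale contig ends was described in wild-type Schizosaccharomyces japonicus, a fission yeast: both ends of supercontig 2 and both ends of supercontig 3. The members were the distinct mapped positions (first base, last base and strand) of reads with a span of 21 to 28 nt. They were taken from bases 1 to 70000 of supercontig 2 by first base (its left end), from base 3796001 onward (its right end), from bases 37001 to 70000 of supercontig 3 (its left end) and from base 2965001 onward (its right end). Bases 1 to 37000 of supercontig 3, a dense region of reads on 1 strand, were left out. The rule found 25036 positions in either library, of 594345 in the whole series, with 6892 and 17178 at the left and right ends of supercontig 2 and 243 and 723 at those of supercontig 3. No allele other than the wild type and no treatment entered the study: 1 group of 2 libraries, replicate 1 and replicate 2, was made from log-phase cells of strain yFS275. The labels do not say that the libraries came from separate cultures, and their spread may be technical. With 1 group of 2, no comparison was tested, and values are given for each library.

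In fission yeasts, Dicer cuts double-stranded RNA into short duplexes whose strands are loaded on Argonaute, and in Schizosaccharomyces pombe these small interfering RNAs guide heterochromatin to repeats at centromeres and near chromosome ends. A duplex cut by Dicer leaves an unpaired overhang at each 3′ end. In S. japonicus, retrotransposons are known to gather around centromeres and telomeres, so a small RNA there often matches many copies. The supercontigs are assembled pieces of the genome, and whether their last bases reach the telomere is not given in the sources used here. No genome sequence of the deposited positions was at hand, so the genes or repeats under the reads were not analysed here.

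Replicate 1 held 3080905 reads of 21 to 28 nt and replicate 2 held 3485818. Outside the left-out bases these were 889190 and 2457514 reads, to which all shares and all RPM (reads scaled to a library of 1000000) refer unless stated. Sequences with mapping score 0 were taken to have several equally good places, of which the lists give 1. Such reads made up 88.5% and 86.0% of the reads at the 4 ends and 72.5% and 69.4% of those of the rest of the genome outside the left-out bases. For them, a difference between places or libraries cannot be told apart from a difference in which copy was listed. Intervals below are 95% Clopper-Pearson intervals and cover counting error only.

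The 4 ends carried very different amounts of small RNA. The left end of supercontig 2 held 6232 reads in replicate 1, or 0.701% (interval 0.684 to 0.718), and 45815 reads in replicate 2, or 1.86% (1.85 to 1.88). The right end of supercontig 2 held 7545 reads, or 0.849% (0.830 to 0.868), and 58331 reads, or 2.37% (2.35 to 2.39). It was above the left end in each library, by more than the counting error. When the count was limited to reads with 1 best place, this order turned round, with 0.500% and 1.19% at the left end and 0.363% and 0.816% at the right end.

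The left end of supercontig 3 held 6155 reads in replicate 1, or 0.692% (0.675 to 0.710), and 2672 in replicate 2, or 0.109% (0.105 to 0.113). In replicate 1 its interval overlapped that of the left end of supercontig 2, and in replicate 2 the intervals were far apart. The right end of supercontig 3 held 432 reads, or 0.0486% (0.0441 to 0.0534), and 746 reads, or 0.0304% (0.0282 to 0.0326), the lowest of the 4 in each library when all reads are counted. As means of the libraries these shares were 1.28% ± 0.823, 1.61% ± 1.08, 0.400% ± 0.413 and 0.0395% ± 0.0129 (SD, n = 2), in the order left and right of supercontig 2, then of supercontig 3. The difference between the means of the ends of supercontig 2 was smaller than the spread of either. Both ends were higher in replicate 2, so this spread is shared and is not the error of the difference between them. Which end of supercontig 3 was the lower depended on the count: with reads of 1 best place its left end had 0.0145% and 0.00640% against 0.0917% and 0.0375% at its right end, and with each position counted once 0.0926% and 0.0339% against 0.190% and 0.0931%.

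**Figure D1:**
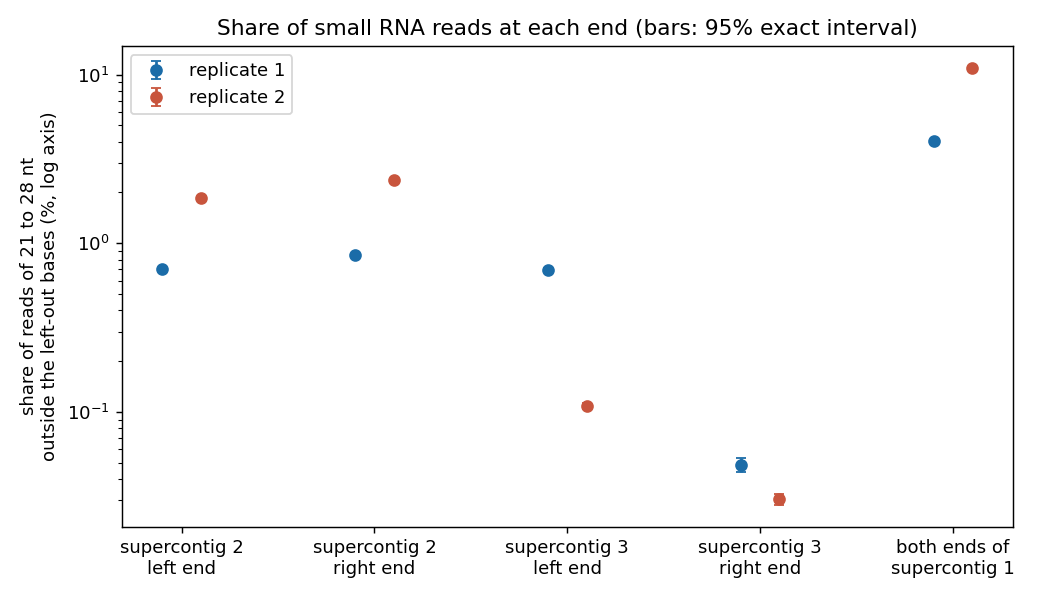
Share of reads of 21 to 28 nt outside the left-out bases (log axis) at each of the 4 ends and, for comparison, at both ends of supercontig 1 together; points are the libraries and bars the 95% exact interval, smaller than most points. Supercontig 2 is higher in replicate 2 (1.86% and 2.37%) than in replicate 1 (0.701% and 0.849%), and supercontig 3 is lower in replicate 2.

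By these shares, the libraries differed in opposite directions at the 2 supercontigs. On supercontig 2 the share was 2.66 times as high in replicate 2 as in replicate 1 at the left end and 2.80 times at the right end. On supercontig 3 the share in replicate 2 was 0.157 times that in replicate 1 at the left end and 0.625 times at the right end. The direction at this right end depended on the total. Out of all mapped reads of 21 to 28 nt, it rose from 0.0140% in replicate 1 to 0.0214% in replicate 2. The left end of supercontig 3 still fell by that total, from 0.200% to 0.0767%. Both ends of supercontig 1, taken as 70000 bases each, moved like supercontig 2, with 2.72 times. The rest of the genome outside the left-out bases had a ratio of 0.979. It held 97.7% and 95.6% of the reads to which the shares refer, so its ratio had to lie near 1 and is no independent reference. With 1 library behind each value, the spread of these ratios across cultures was not measured.

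By density, the left end of supercontig 3 was the highest of the 4 in replicate 1, and the right end of supercontig 2 in replicate 2. Per kb of sequence, the left end of supercontig 2 held 100.1 RPM in replicate 1 and 266.3 in replicate 2, which was 1.17 and 3.19 times the density of the rest. For the right end of supercontig 2 the density was 1.40 and 4.001 times the rest. The left end of supercontig 3 lay above the rest in replicate 1, at 2.46 times, and below it in replicate 2, at 0.394 times. The right end of supercontig 3 lay far below in each library, at 0.0805 and 0.0514 times. The ends of supercontig 1 were denser than any of these in each library, at 3.37 and 9.34 times the rest.

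Each end was divided into windows of 1 kb, reads were assigned by first base, and a window was called dense at 100 RPM or more in each library. Across all windows outside the left-out bases, 5.18% were dense. Of the 245 windows of the 4 ends, 31 were dense: 6 of 70 at the left end of supercontig 2, 24 of 71 at its right end, 1 of 33 at the left end of supercontig 3 and 0 of 71 at its right end. The right end of supercontig 2 thus held 33.8% dense windows and the left end 8.57%, both above the share over all windows, and the ends of supercontig 3 lay below it at 3.03% and 0. These 31 windows held 94.3% and 96.2% of the reads of the 4 ends. A dense window was called both-strand where the strand with fewer reads held at least 10% in each library, as in 74.9% of all dense windows. All 30 dense windows of supercontig 2 were both-strand, and the only one of supercontig 3 held reads of 1 strand.

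**Figure D2:**
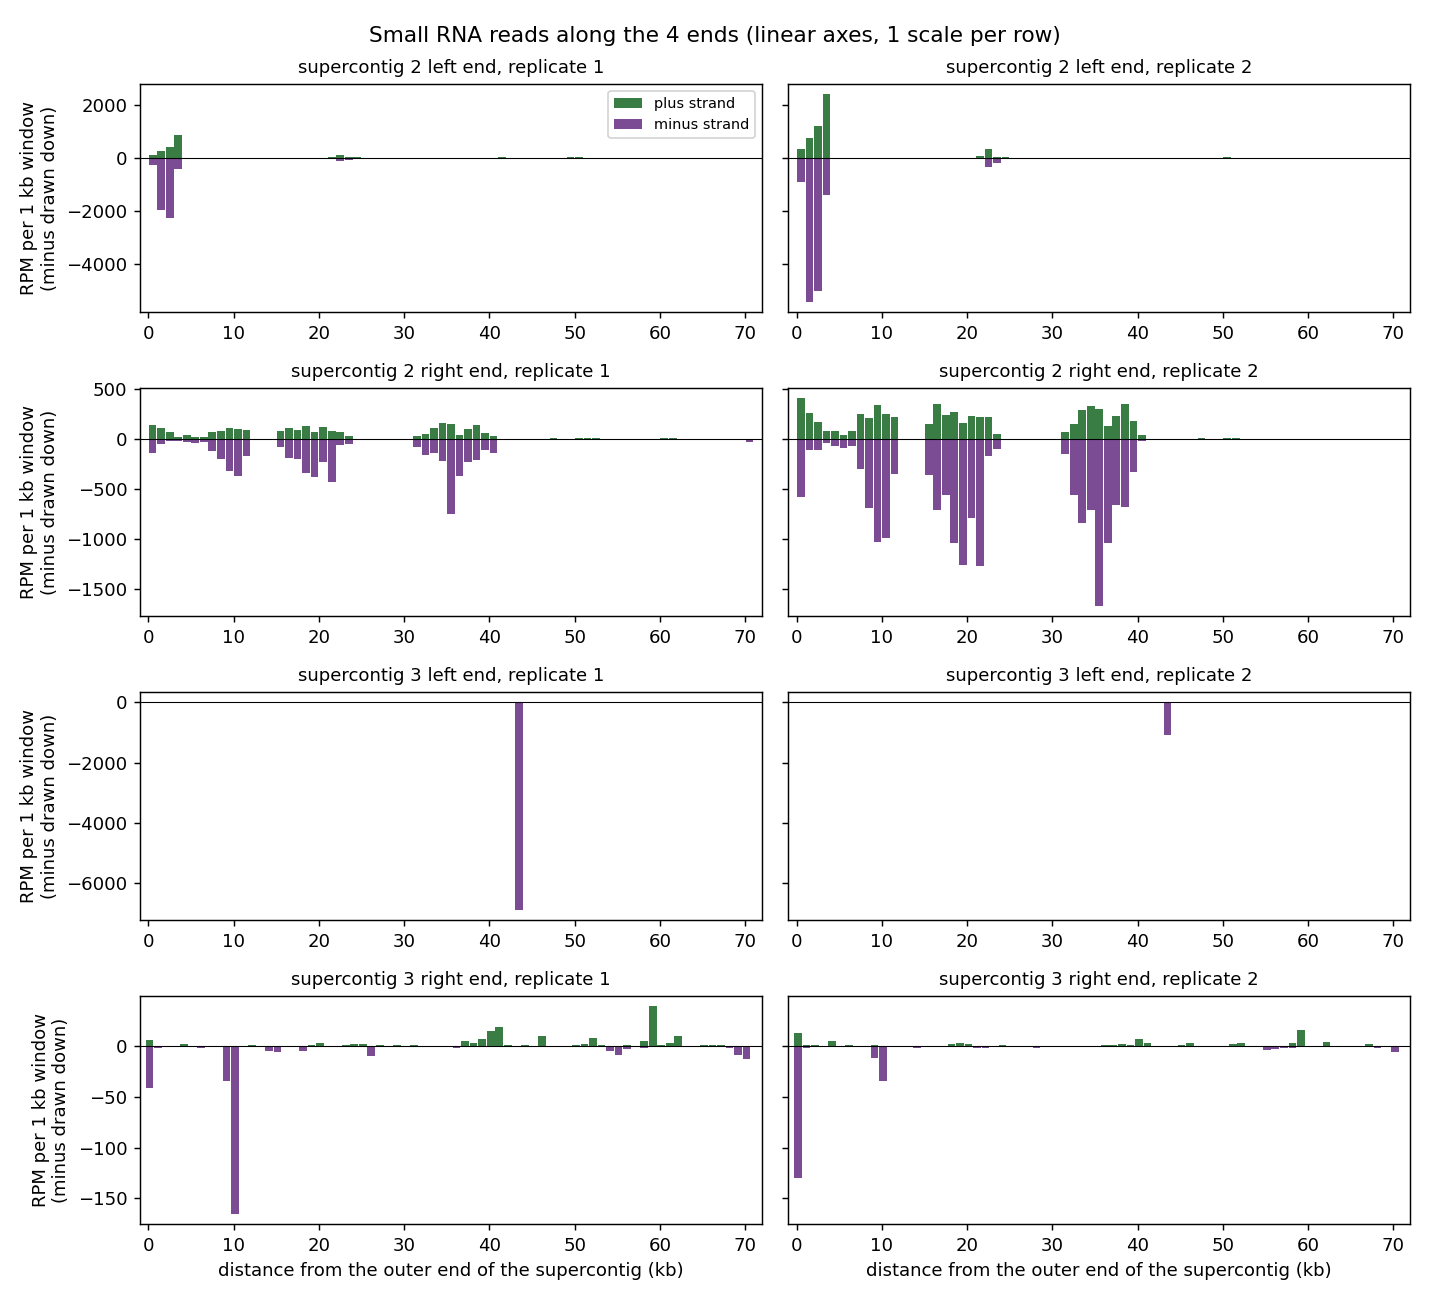
Reads in windows of 1 kb (RPM, linear axes with 1 scale per row; plus strand up, minus strand down) against the distance from the outer end of the supercontig (first base at left ends, last mapped base at right ends), replicate 1 left and replicate 2 right. The left end of supercontig 2 has its reads in the outermost 4 kb. Its right end has 3 broad clusters and a small terminal one, joined to its neighbour by lower windows. The left end of supercontig 3 has its reads in 1 window on the minus strand. The right end of supercontig 3 has low, scattered windows on a much finer scale.

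At the left end of supercontig 2 the small RNA lay at the very edge of the assembled sequence. Bases 1 to 4000 held 5824 of the 6232 reads in replicate 1, or 93.5% of the end, and 42974 of 45815 in replicate 2, or 93.8%. Reads began at base 2 in replicate 1 and base 1 in replicate 2. The cluster stopped short of base 3725, from where 18030 bases, up to base 21754, held no read in either library. It was 1 of 12 read-free stretches of 15 kb or more on supercontigs 1 to 3, and the longer ones all lay in the interior. A count of 0 allows up to 3 reads, or 3.37 RPM in replicate 1 and 1.22 in replicate 2. Whether these bases were sequenced in the assembly was not analysed here.

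The 3 windows with most reads at this end were neighbours in the terminal cluster. Bases 2001 to 3000 held 2401 and 15306 reads, bases 1001 to 2000 held 1958 and 15228, and bases 3001 to 4000 held 1132 and 9399. The outermost kilobase held fewer, with 333 and 3041 reads. Across the 6 dense windows of this end, the reads in the libraries had a ratio of 6.37 to 9.13 (replicate 2 over replicate 1), a narrow range beside the differences between windows.

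The strand in use changed within this cluster. The plus strand held 11.1% and 12.2% of the reads in bases 1001 to 2000, 15.04% and 18.99% in bases 2001 to 3000, and 65.9% and 62.8% in bases 3001 to 4000. So the minus strand, which here runs 5′ to 3′ toward the end of the supercontig, held most reads in each of the first 3 windows and the plus strand, running inward, in the fourth window as a whole. Bins of 100 bases varied within these windows. Bases 1701 to 1800 held 676 and 5396 reads with 1.92% and 1.72% on the plus strand, and bases 3501 to 3600 held 152 and 1651 reads with 80.9% and 79.6% on it. Other bins went against their window: bases 701 to 800 held 11 and 186 reads with 72.7% and 98.4% on the plus strand, and bases 3601 to 3700 held 105 and 1033 with 38.1% and 34.4%. Of 33 bins with at least 20 reads in each library, 26 had most reads on the minus strand in both libraries, 4 on the plus strand in both, and 3 differed between the libraries.

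A smaller locus lay inward of the empty stretch. Dense windows separated by fewer than 2 other windows were joined into loci, and the locus at bases 22001 to 24000 held 285 and 2302 reads, or 4.57% and 5.02% of the left end. Of these, 35.8% and 40.9% were on the plus strand and 35.1% and 46.1% were of 23 nt. Beyond it, bases 24001 to 70000 held 98 and 324 reads in all. In the 5 kb just inside the limit at base 70000 there was no read, and in the 5 kb just outside there were 1 and 12.

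The 2 positions with most reads at the left end of supercontig 2 were both on the minus strand and had several places. Bases 1800 to 1823, 24 nt, had 59 and 611 reads from 5 and 26 distinct sequences. Bases 2385 to 2407, 23 nt, had 73 and 555 reads from 4 and 17 sequences. No position dominated: the 10 most abundant held 11.1% and 9.87% of the reads of this end. Distinct sequences listed at the same position numbered 1.22 and 1.62 on average, against 1.05 and 1.18 at the right end.

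The right end of supercontig 2 spread its reads over 4 loci within 40 kb of the last mapped base, 3866994. Bases 3827001 to 3836000 held 36.6% and 36.5% of the end, with 2759 and 21304 reads. From bases 3844001 to 3852000 came 2369 and 19600, which made 31.4% and 33.6%. Farther out, named after their values were seen, bases 3855001 to 3860000 held 19.2% and 19.5% and bases 3865001 to 3866994 held 5.26% and 5.73%. The division of reads among the loci thus differed by at most a few percentage points between the libraries. Their reads at this end differed 7.73 times. The first loci were separated by 7017 read-free bases (3836119 to 3843135) and the next by 3554 (3851723 to 3855276). Between the third and the outermost locus, bases 3860001 to 3865000 held 277 and 2061 reads. The windows there fell short of the dense limit in replicate 1 only, so the split of these loci rests on that limit.

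The windows with most reads at this end were each below those of the left end. Bases 3831001 to 3832000 held 795 and 4830 reads, bases 3845001 to 3846000 held 452 and 3655, and bases 3847001 to 3848000 held 406 and 3494. The plus strand held 16.0% and 15.1%, 15.5% and 14.6%, and 15.3% and 11.2% of them. It took 9 windows to reach 50% of the reads of the right end in each library, against 2 windows at the left end.

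The minus strand led in the 3 inner loci, with 74.0% and 76.8% of the reads of bases 3827001 to 3836000, 72.9% and 77.2% of bases 3844001 to 3852000, and 73.5% and 72.9% of bases 3855001 to 3860000. In the outermost locus the strands were close to even, with 43.8% and 50.9% on the minus strand. At a right end the minus strand runs inward, away from the end, so the leading strand had the opposite direction relative to the end from that in the first 3 kb of the left end. In bins of 100 bases, 39 of 48 bins of the innermost locus had a minus-strand majority in both libraries and 4 a plus-strand majority in both.

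Among the dense windows of this end, the share of reads with several places was lowest at the inner edge of the innermost locus. In bases 3827001 to 3829000, reads with several places made up 37.3% to 43.3% over both windows and libraries. They made up 75.4% and 76.7% of the whole innermost locus, 98.8% and 99.1% of bases 3844001 to 3852000, and 95.2% and 95.1% of the outermost locus. The level of these outer loci therefore depends on how copies were listed, and that of the inner edge depends on it less.

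The 2 positions with the highest mean share at the right end had nearly all of their reads in replicate 2. Bases 3833467 to 3833489 on the minus strand, 23 nt, had 1 read in replicate 1 and 619 in replicate 2. Bases 3847653 to 3847675, again minus and 23 nt, had 0 and 446. Both had a mapping score of 0: listing at another copy in replicate 1 cannot be told apart from absence. The most abundant position of replicate 1 was another one, with 117 reads, or 1.55% of this end.

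The libraries shared a part of their positions. At the left end of supercontig 2, 1537 positions were found in both libraries, which is 70.6% of those of replicate 1 and 24.6% of those of replicate 2. At the right end 1724 were shared, or 42.8% and 11.6%. Among positions with a single best place the right end shared 62.7% of those of replicate 1, and among positions with several places 38.8%. At the left end these were 72.8% and 69.2%. The part of depth and of copy listing in this overlap was not tested.

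The ends of supercontig 2 had similar spans. At the left end 23 nt was the most frequent span, with 39.96% of reads in replicate 1 and 36.2% in replicate 2, and at the right end it held 38.8% and 37.3%. The means were 38.1% ± 2.65 and 38.1% ± 1.01 (SD, n = 2), closer to each other than the spread between libraries. Spans of 21 nt made up 10.01% and 9.54% at the left end and 10.8% and 11.1% at the right end. By strand, 23-nt reads were 39.0% of plus-strand and 40.3% of minus-strand reads at the left end in replicate 1, and 33.1% and 37.4% in replicate 2. At the right end they were 41.4% and 37.7% in replicate 1, and 37.98% and 37.1% in replicate 2. Spans of 21 nt were more frequent on the plus strand at the left end, with 13.5% against 8.83% in replicate 1 and 11.7% against 8.70% in replicate 2. These were, at the right end, 10.6% of plus-strand and 10.9% of minus-strand reads in replicate 1, and 9.09% and 11.8% in replicate 2. The rest of the genome outside the left-out bases had 25.5% and 34.2% of its reads at 23 nt, and the ends of supercontig 1 had 39.99% and 39.9%.

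The 30 both-strand windows of these ends had medians near those of the 424 both-strand windows elsewhere. The median share of 23-nt reads was 37.3% and 36.6% at the ends and 38.5% and 38.1% elsewhere, and the median share of the strand with fewer reads was 29.3% and 26.2% against 31.99% and 31.03%. The median ratio of reads in replicate 2 to replicate 1 was 8.05 at the ends and 7.42 elsewhere. These medians are descriptions, since windows of 1 library are not replicates.

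**Figure D3:**
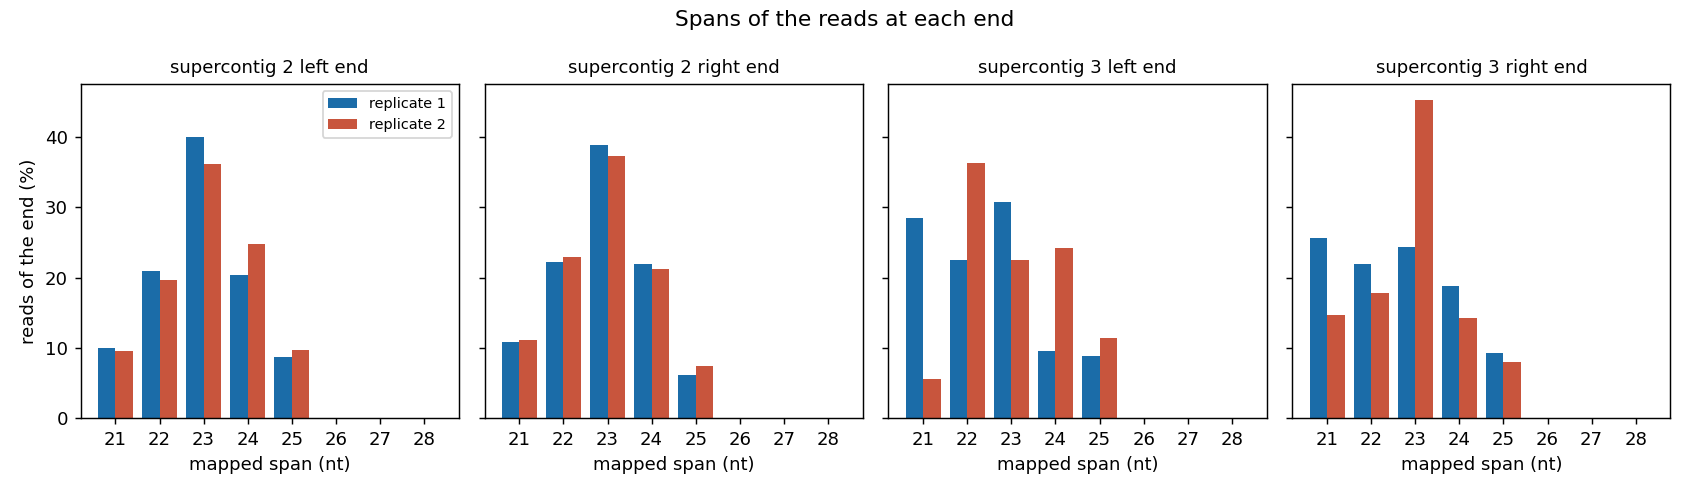
Share of the reads of each end (%, bars from 0) by mapped span in nt, with replicate 1 and replicate 2 side by side. Both ends of supercontig 2 peak at 23 nt in both libraries (36.2% to 39.96%), while the spans of supercontig 3 differ between the libraries.

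The minus strand was favoured more in reads than in positions. At the left end of supercontig 2 it held 74.7% and 72.3% of the reads and 67.2% and 60.9% of the positions, with 3.18 and 8.71 reads per position against 2.21 and 5.18 on the plus strand. At the right end it held 71.2% and 73.5% of the reads and 62.8% and 56.5% of the positions, with 2.12 and 5.10 reads per position against 1.45 and 2.39. The rest of the genome outside the left-out bases had 51.2% and 57.5% of its reads on the minus strand, and the ends of supercontig 1 had 56.7% and 58.1%. Strand names follow the orientation of each supercontig in the assembly, which is arbitrary between supercontigs.

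Pairs of positions of the same span on opposite strands were counted by their difference of start. At −2 nt the pair overlaps with 2 unpaired bases at each 3′ end, the form in which Dicer leaves its products. At the left end of supercontig 2 replicate 1 had 72 such pairs, which was 1.43 times the mean of 50.3 ± 7.79 over the 20 other differences within 10 nt of it (± SD). Replicate 2 had 583, or 1.39 times its mean of 419.95 ± 30.4. At the right end 57 pairs in replicate 1 were 2.10 times the mean of 27.2 ± 6.25, and 571 pairs in replicate 2 were 1.49 times that of 383.7 ± 49.4. The count at −2 nt was the highest of the 41 differences within 20 nt at both ends in both libraries, although in replicate 1 the next highest came close, with 70 pairs at −13 nt at the left end and 53 at −16 nt at the right end. For the rest of the genome outside the left-out bases the ratios were 1.60 and 1.39.

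The excess was also found among reads with a single best place. Of these reads alone, replicate 1 had 21 pairs at the left end, 2.01 times the mean of 10.45 ± 2.14, and replicate 2 had 160, 1.58 times the mean of 101 ± 12.1. At the right end replicate 1 had 10, 2.90 times 3.45 ± 1.43, and replicate 2 had 121, 1.62 times 74.6 ± 10.96. By span, replicate 2 had ratios of 1.29 to 1.54 at the left end and 1.36 to 2.25 at the right end for each span from 21 to 25 nt. Replicate 1 had few pairs per span, and at 21 nt only 1 against 2.80 at the left end.

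**Figure D4:**
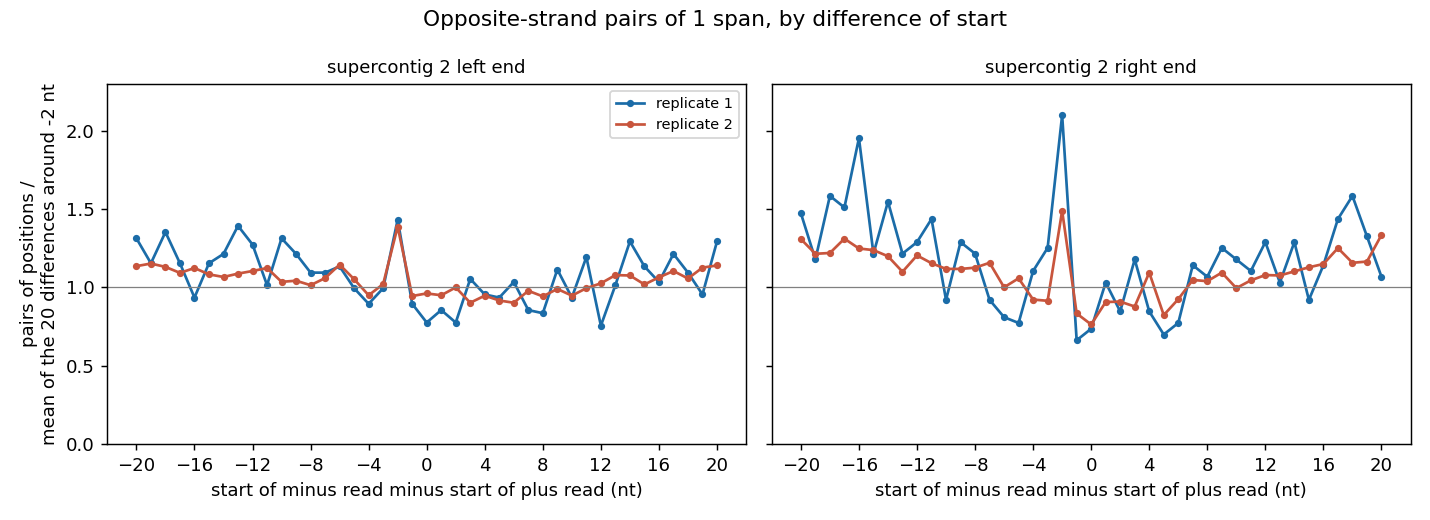
Pairs of positions of 1 span on opposite strands, by the start of the minus read minus the start of the plus read (nt), divided by the mean of the 20 differences around −2 nt; lines are the libraries and the grey line marks 1. The highest point of each line is at −2 nt, at 1.43 and 1.39 on the left and 2.10 and 1.49 on the right, with wider scatter in replicate 1.

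Other arrangements of ends were counted in the same way. Outward-facing 5′ ends on opposite strands with 2 bases between them formed 514 pairs of positions in replicate 1 at the left end, 1.97 times the mean of 261 ± 26.8 at the other gaps within 10 nt. Replicate 2 had 3335, 1.54 times its mean of 2160 ± 179.6. At the right end the ratios were 1.88 and 1.60. Positions on the same strand whose 5′ end lay directly after the last base of an upstream position were 1.19 and 1.10 times as frequent as at the 10 other distances within 5 nt at the left end, and 1.28 and 1.16 times at the right end. The rest of the genome had 1.85 and 1.60 for the outward-facing ends and 1.21 and 1.13 for the adjoining ones. Overlapping reads share bases, so these counts are not independent of each other.

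The left end of supercontig 3 was of a different kind. Nearly all of its reads, 6120 of 6155 in replicate 1 and 2625 of 2672 in replicate 2, lay in bases 43001 to 44000, all of them on the minus strand. A count of 0 on the plus strand of this window allows up to 3 reads. Within the window the reads covered only bases 43587 to 43671. The stretch with at least 1% of the highest coverage was 76 bases long in replicate 1 (43588 to 43663) and 77 in replicate 2 (43588 to 43664). On its left lay 6586 read-free bases, up to the limit of the left-out bases, and on its right 5285.

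Reads in this stretch piled up at its 3′ side. The middle of the stretch in replicate 1 was base 43625. Of the reads, 81.7% and 86.3% lay wholly up to it, on the 3′ side of the minus strand, and 5.38% and 3.73% wholly beyond it. Coverage peaked at 5454 reads on base 43611 in replicate 1 and at 2414 on base 43610 in replicate 2. Of the minus-strand reads, the most used 5′ end was base 43613 in replicate 1, with 1512 reads (24.7% of the window), and base 43619 in replicate 2, with 801 reads (30.5%). The most used 3′ ends were base 43592, with 1381 reads, and base 43597, with 755 reads. The single most used ends of the libraries thus lay 5 or 6 nt apart, and the ends in use overlapped only in part. In replicate 1, base 43617 had 1317 5′ ends and base 43597 had 763 3′ ends, so other ends were used often too. Base 43617 had only 7 5′ ends in replicate 2. Bases 43618 and 43619 had 670 and 801 5′ ends in replicate 2, against 78 and 75 in replicate 1. In replicate 2, bases 43613 and 43592 had 235 5′ ends and 129 3′ ends.

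**Figure D5:**
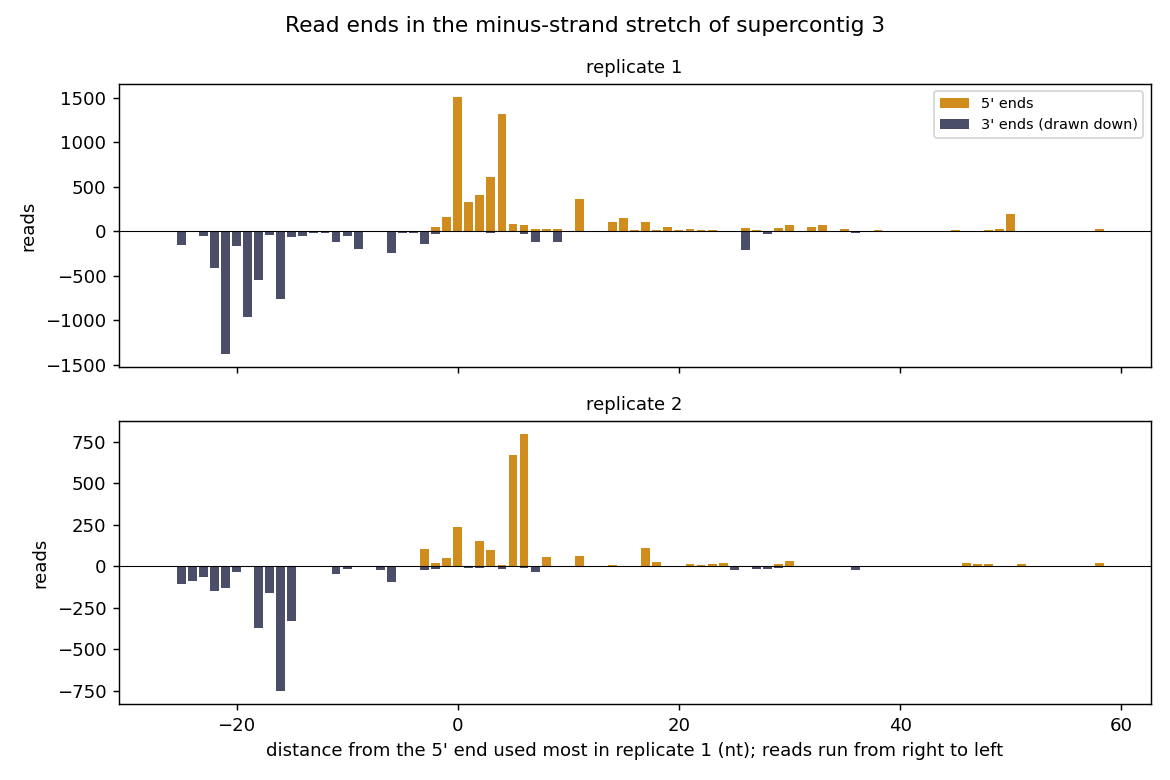
Reads of the minus-strand stretch of supercontig 3 by the base of their 5′ end (up) and 3′ end (down), as distance in nt from the 5′ end used most in replicate 1; reads run from right to left. In replicate 1 the highest bar of 5′ ends (1512 reads) is at 0, in replicate 2 (801 reads) at 6 nt.

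Single positions carried much of this stretch. Bases 43592 to 43613, 22 nt, had 1002 reads in replicate 1, or 16.3% of the end, and 3 in replicate 2. Bases 43597 to 43617, 21 nt, had 747 and 1. The most abundant position of replicate 2 was another one, with 460 reads, or 17.2% of the end. The 10 most abundant positions held 72.5% and 71.3% of the reads of this end, against 11.1% and 9.87% at the left end of supercontig 2. Of 133 positions in the window in replicate 1 and 101 in replicate 2, 67 were shared, and these held 71.7% and 92.9% of the reads.

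Spans in the stretch also differed between the libraries. At 21 nt the share was 28.5% in replicate 1 and 4.95% in replicate 2, at 22 nt 22.5% and 36.6%, at 23 nt 30.7% and 22.5%, and at 24 nt 9.44% and 24.4%. Of all reads in the window, 1 in replicate 1 and 0 in replicate 2 had a single best place. Listing at other copies and a change in the RNA itself cannot be told apart for these differences.

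Beside this stretch, the left end of supercontig 3 held few reads. Its other 32 windows held 35 and 47 reads, of which 85.7% and 83.0% were on the plus strand and nearly all had a single best place. The next windows by reads were bases 61001 to 62000, with 11 and 13 reads, and bases 60001 to 61000, with 5 and 2. No pair of opposite-strand positions with 3′ overhangs of 2 nt was found at this end in either library. The mean over the other differences within 10 nt was 0 as well, so the overlap of strands could not be assessed. Just outside the limit at base 37000, the 5 kb of left-out bases held 75208 and 30790 reads, and the 5 kb just inside held 0 in each library.

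The right end of supercontig 3, up to the last mapped base 3035646, held no dense window. Its 432 and 746 reads were scattered over 54 and 58 of 71 windows, and only 23 positions were shared by the libraries, 6.78% of those of replicate 1 and 5.65% of those of replicate 2. The overlap of opposite strands could not be assessed, with 1 pair at −2 nt in each library.

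Its 3 windows with most reads differed from each other. Bases 3025001 to 3026000 held 147 and 84 reads, all on the minus strand, with 93.2% and 94.05% having several places and 24.5% and 21.4% at 23 nt. The last window, from base 3035001, held 42 and 350 reads, of which 57.1% and 75.4% were 23 nt long and 11.9% and 8.86% mapped to the plus strand. Bases 2976001 to 2977000 held 35 and 39 reads, all on the plus strand, nearly all with a single best place, and with 17.1% and 15.4% at 23 nt. The last window was 8.33 times as high in reads in replicate 2 as in replicate 1, close to the median of 8.05 over the both-strand windows of supercontig 2, and the first was 0.571 times as high.

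The last window held 9.72% of the reads of this end in replicate 1 and 46.9% in replicate 2. In replicate 2, 1 position of 23 nt on the minus strand, bases 3035467 to 3035489, had 209 of the 746 reads, or 28.0%, and it had 0 reads in replicate 1. The adjoining position, bases 3035490 to 3035512, again 23 nt on the minus strand, had 19 reads in replicate 1, its most abundant, and 1 in replicate 2. The share of 23-nt reads at this end was 24.3% (20.3 to 28.6) in replicate 1 and 45.3% (41.7 to 49.0) in replicate 2. Among reads with a single best place, 221 and 275 in number, the shares were 19.0% and 17.5%, and 60.6% and 60.0% lay on the plus strand. In the 5 kb just inside the limit at base 2965001 there were 23 and 28 reads, and in the 5 kb just outside 617 and 1302.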

How the data were processed

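Small RNA of 10 to 40 nt was gel-enriched and adapters were ligated to 5′ monophosphate and 3′ hydroxyl ends, per the labels' protocols. RNA with other ends is thus outside the measurement. The authors deposited 1 list per library of distinct sequences, each with 1 aligned place, a mapping score from 0 to 37 and a name whose last number was read as a raw count of reads. BWA is named, per the submitters' processing notes; no version, setting or build is given in the sources used here. Positions follow the deposited supercontigs, counted from 1. No normalization or pooling is recorded in the deposited lists.

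Python 3.11.15 with numpy 2.4.6, pandas 2.3.3 and scipy 1.17.1 was used. Counting of windows and pairs was tested on simulated data. Windows were 1 kb, dense at 100 RPM in each library. Named windows, positions and loci were the 3, 2 and 2 with the highest mean share at each end, unless stated. The ends, measures and limits were chosen with earlier results of these data known. No test between ends was run, since an exact test over 2 libraries cannot pass a usual threshold. Depth was 3086539 and 3492513 mapped reads. Alternatives were reads with a single best place, positions counted once, other totals, windows, limits and neighbours, and each library alone. No gene annotation was used, since the table at hand belongs to another assembly.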

Additional observations from a re-analysis of the deposited data

Results flagged for a closer look

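Reads shorter than the 21 nt used throughout were present at the 4 ends, with 12 in replicate 1 and 64 in replicate 2. There was no control library, and these numbers are given as a description. They exceed the 3 reads that a count of 0 allows, the limit for flagging, but no count of 0 was at hand to set them against. Of these, 6 and 55 lay at the left end of supercontig 2, or 0.0962% and 0.120% of its mapped reads, and all were of 19 or 20 nt.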

How the results depend on the processing

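Each of the 9 results was recomputed under the alternatives, 48 values in all. Of these, 34 moved by less than the spread (SD) between the libraries (counts: by less than 1.5 times). For results other than counts, leaving out either of 2 libraries always moves the mean by less than this SD. Those values are among the 34, and the SD of some shares was near their mean, so the 34 do not measure robustness. The following moved by more than these limits, and the cause was not tested beyond what each setting removes. With each position counted once, the share of reads became 2.83% at the right end of supercontig 2 and 0.142% at that of supercontig 3, the 23-nt share over the 4 ends 30.03%, and the minor-strand share (19.5% ± 5.13, SD, n = 2, summed window by window) 34.3%. With reads of a single best place alone, the right end of supercontig 3 had 0.0646%, the 23-nt share was 36.2% (from 36.5% ± 0.110) and the pair ratio 1.91 (from 1.56). Dense windows then numbered 11, all of them both-strand, with the RPM scaled to the total of such reads outside the left-out bases. Out of all mapped reads of 21 to 28 nt, the right end of supercontig 3 held 0.0177% (0.0140% in replicate 1 and 0.0214% in replicate 2). Pairs of positions with 2 or more reads had a ratio of 1.89. Shorter windows, of 500 bases, gave 58 dense and 52 both-strand windows. There are more such windows and the limit was scaled to their length, so these counts do not compare directly with those of 1 kb windows. Without the dense window of supercontig 3, an alternative chosen after seeing the data, the 23-nt share was 37.9%. Under other density limits the dense windows numbered 36 (50 RPM) and 24 (200 RPM), and with a single library 33 and 38. The order of the ends by share was not kept throughout: with reads of a single best place the left end of supercontig 2 had 0.846% and the right end 0.589%, and the left end of supercontig 3 went from 0.400% to 0.0105%, below its right end, as it did with each position counted once (0.0632%). The depth of replicate 1 limits the pair counts, and most positions rest on copies that cannot be told apart.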
